A study of Homo sapiens with 6 samples.

Results

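Transcripts of the pre-B-cell receptor (pre-BCR) and of the kinases closest to it were measured in REH cells with and without silencing of the ETV6/RUNX1 fusion. The 9 genes were VPREB1, VPREB3, IGLL1, CD79A, CD79B, BLNK, SYK, BTK and LYN, out of 19721 genes that catalogue probes of the array name. They were found through the RefSeq accession of each catalogue probe, which gave 14 probes, with 2 probes for each of 5 genes and 1 probe for each of 4. The human line REH, grown from a B-lineage acute lymphoblastic leukemia, carries ETV6/RUNX1 and, according to the study, lacks the other ETV6 allele. By the labels, 3 one-color arrays are of cells given non-targeting shRNA (short hairpin RNA), the control group, and 3 are of cells given shRNA directed at the fusion, the knockdown group. By the study's methods, both hairpins were designed on ETV6 and delivered by lentivirus with a GFP gene, the control hairpin being the one that did not hit the fusion, and GFP-positive cells were sorted. Both groups thus carry a hairpin, a vector and GFP, and a single cell line stands for the disease.

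The pre-BCR is the receptor that a B-cell precursor displays once it has made a heavy chain but not yet a conventional light chain. VPREB1 and IGLL1 encode the surrogate light chain that takes its place, and CD79A and CD79B encode the signalling chains that carry the activation motifs of the complex. LYN, a SRC family kinase, phosphorylates these motifs, SYK docks on them, and BLNK is the adaptor through which SYK reaches BTK. Signalling through this complex drives expansion of the precursors and then their differentiation, and leukemias of this lineage differ in whether they display it.

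In brief, 11 of 12 measurable probes were higher after knockdown, by at most 0.68 on the log2 scale, against 49.7% of all measurable probes of the array. In the comparison of the groups 0 of the 12 passed the adjusted threshold, against 1.74% of all. Both IGLL1 probes and the CD79B probe passed it once the replicate number was taken into account, when 3.79% of all did. VPREB1 was not measurable in either group, apart from 1 probe on 1 control array. LYN alone had a negative difference, within the spread of its replicates.

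The stretch before the transcription start is shown for the 3 genes that hold a RUNX core motif there, and for VPREB1 as the other part of the surrogate light chain. RUNX1 keeps its DNA-binding domain in the fusion, which is why this motif was searched. Sequences are the 250 bases upstream of the start, from RefSeq on GRCh38.p14, read 5′ to 3′ on the gene's strand. Capitals mark matches on either strand to the RUNX core TGTGGT, the E-box CAGGTG bound by E2A, and the ETS motif AGGAAG. IGLL1 lies at chr22:23580291-23580540 on the minus strand, VPREB3 at chr22:23754426-23754675 on the minus strand, CD79A at chr19:41877029-41877278 on the plus strand and VPREB1 at chr22:22244536-22244785 on the plus strand.
IGLL1: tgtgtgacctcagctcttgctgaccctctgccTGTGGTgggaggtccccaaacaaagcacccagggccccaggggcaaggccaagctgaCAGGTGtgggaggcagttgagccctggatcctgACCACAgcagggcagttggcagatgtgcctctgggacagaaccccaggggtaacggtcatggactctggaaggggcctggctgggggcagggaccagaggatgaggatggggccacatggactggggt
VPREB3: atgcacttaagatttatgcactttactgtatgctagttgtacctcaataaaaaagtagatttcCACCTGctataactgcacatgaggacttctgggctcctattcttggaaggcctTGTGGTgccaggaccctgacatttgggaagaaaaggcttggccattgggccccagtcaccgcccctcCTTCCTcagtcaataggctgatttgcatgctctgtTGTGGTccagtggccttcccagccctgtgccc
CD79A: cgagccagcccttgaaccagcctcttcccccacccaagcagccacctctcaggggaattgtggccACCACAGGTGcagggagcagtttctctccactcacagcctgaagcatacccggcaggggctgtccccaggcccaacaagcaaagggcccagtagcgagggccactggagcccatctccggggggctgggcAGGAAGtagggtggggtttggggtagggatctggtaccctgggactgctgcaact
VPREB1: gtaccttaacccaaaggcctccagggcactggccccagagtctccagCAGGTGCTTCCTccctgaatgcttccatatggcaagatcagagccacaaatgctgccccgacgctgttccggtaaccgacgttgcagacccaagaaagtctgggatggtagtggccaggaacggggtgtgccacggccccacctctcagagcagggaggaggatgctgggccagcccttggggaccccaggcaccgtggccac

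IGLL1 and VPREB3 each hold the RUNX core at 2 places, at 218 and 128 bases before the IGLL1 start and at 134 and 32 bases before the VPREB3 start. CD79A holds it at 185 bases, on the reverse strand, where it overlaps the E-box. VPREB1 has no match to it in this window. A promoter was listed for 7 of the 9 genes, with several windows for SYK and BTK, and 3 of the 7 genes held the RUNX core, against 11% of all 35116 RefSeq promoter windows of this length. The E-box was present in 6 of the 7 genes and in 17.5% of all windows, and the ETS motif in 6 of 7 and in 28.7%. The EBF1 motif, TCCC and GGGA spaced by 2 bases, was found in 0 of 7 and in 1.06% of all windows. Genes with several windows had more chances of a match. These matches describe letters and not binding.

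Levels below are variance-stabilized intensities on a generalized log2 scale, in the order of replicates 1, 2 and 3. Different probes bind their targets with different strength, so levels are compared only within a probe. A probe was retained where 2 or more of the 3 arrays of a group put it over the negative controls, and is said to be called where its adjusted p, taken over all 27490 retained probes, was under 0.05. Median raw intensity was 66 to 75 per array, against 42.25 to 48 for the negative controls, and 0 spots were saturated. All 6 arrays lay on 1 slide, with control replicates 1 and 2 in row 1 and control replicate 3 and all knockdown arrays in row 2, so that row and group are partly confounded. A retained ETV6 probe read 7.92, 8.05 and 8.37 in control and 7.50, 7.46 and 7.29 in knockdown arrays. The difference was -0.70 (SE 0.14, adjusted p = 0.0513, just over the threshold), and it ran from -0.96 to -0.35 over 17 alternatives, 2 of which called it. Whether this probe lies in the part kept by the fusion was not analysed here. The 5 RUNX1 probes differed by -0.26 to 0.03, with adjusted p from 0.51 to 0.945.

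Most identity markers of the line were present. Of 13 B-cell precursor genes measured, 12 had a retained probe, CD79A among them, and VPREB1 had none. All 13 had a probe well above background on some array by the scanner software's flag, VPREB1 on 1 control array only. By that flag, CD3E, CD3G and CD7 of the T cell list had no probe above background on any array. The same held for ELANE and FCGR3A of the myeloid list and HBB of the erythroid list. By the negative controls, which set the filter, CD3E was over the threshold on 2 arrays. The summed linear level of the B-cell precursor list was 221000 to 227000 in control and 232000 to 289000 in knockdown arrays. For the myeloid list it was 15700 to 17400 and 3930 to 5800, and 2 of its 5 retained probes were called, both lower. MPO, the neutrophil peroxidase, fell by 2.02 on the log2 scale (adjusted p = 0.00107), from a mean of 13.95 to 11.93. MPO makes up most of the list's sum in both groups, so the fall of the sum is mainly that of MPO. CD68, a lysosomal protein of macrophages, fell by 0.58 (adjusted p = 0.0284). CD14, CSF1R and ITGAM differed by -0.13, -0.05 and 0.07 and were not called. The T cell list summed to 5550 to 5860 and 6030 to 6220, and the erythroid list to 621 to 658 and 620 to 680. Most of the T cell sum is CD4, with means of 12.34 in control and 12.44 in knockdown arrays. The part of these levels in the results below was not tested. In such bulk RNA, fewer cells of a type and less RNA per cell cannot be told apart.

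Next, the surrogate light chain was examined. VPREB1, its variable-like part, gave no usable signal. Probe A_33_P3305835 read 7.16, 5.0 and 4.40 in control and 4.88, 4.97 and 5.13 in knockdown arrays. It was well above background on 1 control array and on 0 knockdown arrays, and the high value stands alone in its group. Probe A_33_P3418621 read 5.17, 4.86 and 5.02 against 5.08, 5.09 and 5.06, and was above background on no array. Neither probe was retained, so no difference is given for VPREB1.

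**Figure D1:**
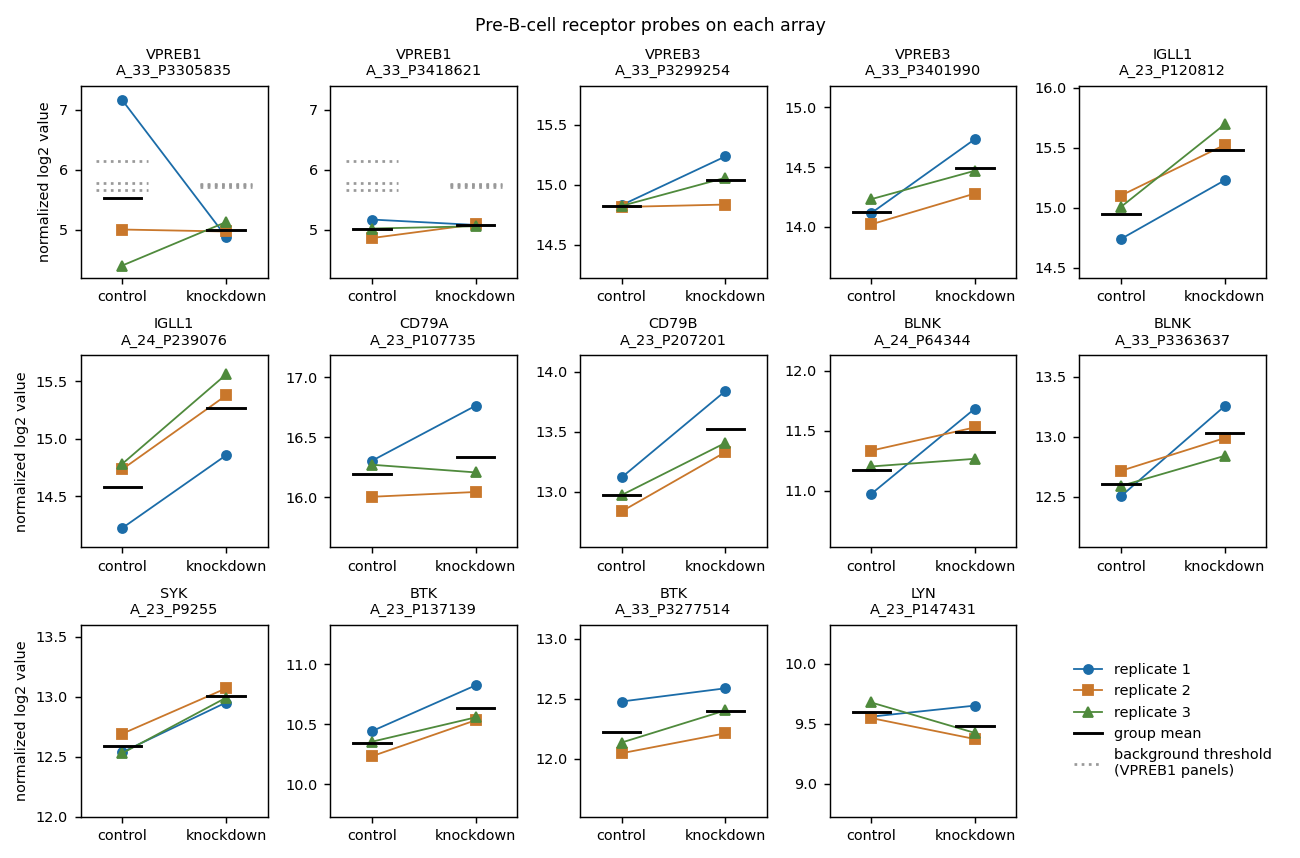
Normalized log2 value (y axis, its range differing between panels) of each of the 14 probes on each array, with lines joining control and knockdown arrays of the same replicate number and black bars for group means. Both IGLL1 probes and CD79B are higher at the knockdown end of every line, while the VPREB1 values lie under the dotted background threshold of each array, except that of A_33_P3305835 on control replicate 1.

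IGLL1, the lambda-like part also known as lambda5, was bright and higher in all knockdown arrays than in any control array. Probe A_23_P120812 read 14.74, 15.10 and 15.01 in control and 15.23, 15.52 and 15.69 in knockdown arrays. This is a 1.45-fold difference, 0.53 on the log2 scale (SE 0.15, 95% interval 0.19 to 0.88, adjusted p = 0.174). Probe A_24_P239076 read 14.22, 14.74 and 14.78 against 14.86, 15.38 and 15.56. Its difference was 1.61-fold, or 0.68 (SE 0.21, interval 0.19 to 1.18, adjusted p = 0.221). Replicate 1 was the lowest of its group on both probes and in both groups. With the replicate number as a block, the adjusted p was 0.0379 and 0.0132, and both probes were called. With slide row as a term in the limma fit, the differences were 0.476 and 0.481 (adjusted p = 0.751 and 0.853), and neither was called. The pair differences were 0.49, 0.42 and 0.69 on the first probe and 0.63, 0.64 and 0.78 on the second.

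VPREB3, a VpreB-like protein that associates with immunoglobulin chains inside the cell, was also bright. Probe A_33_P3401990 read 14.12, 14.02 and 14.23 in control and 14.73, 14.28 and 14.47 in knockdown arrays, which do not overlap. The difference of 0.37 (SE 0.13, interval 0.06 to 0.68) had an adjusted p of 0.303. Probe A_33_P3299254 read 14.83, 14.81 and 14.82 against 15.23, 14.83 and 15.06. The controls lie within hundredths of each other and knockdown replicate 2 is barely above them, and the difference was 0.22 (SE 0.12, interval -0.06 to 0.50, adjusted p = 0.51), or 0.12 without knockdown replicate 1.

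The same family holds IGLL5, another lambda-like gene, listed here with the light chain genes. Of 6 genes on that list, it was the 1 with a matched probe, which read 11.44, 12.83 and 12.89 in control and 12.31, 13.81 and 14.12 in knockdown arrays. As with IGLL1, replicate 1 was low in both groups, so that the groups overlap although each knockdown array exceeded its own control. The difference was 1.03 (SE 0.53, adjusted p = 0.485), and with the replicate block the adjusted p was 0.00604. IGLL1, IGLL5 and the lambda constant genes are close relatives, and how far these probes bind each other's transcripts was not tested.

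Of the signalling chains, CD79B was higher on every knockdown array than on any control array, while CD79A was not distinguishable between the groups. The CD79B probe read 13.12, 12.84 and 12.97 in control and 13.84, 13.33 and 13.41 in knockdown arrays, with no overlap. The difference was 1.46-fold, or 0.55 (SE 0.15, interval 0.20 to 0.90, adjusted p = 0.166), and the replicate block brought the adjusted p to 0.0367, a call. With slide row as a term in the limma fit, the CD79B difference was again 0.55, with an adjusted p of 0.661, and was not called. CD79A read 16.30, 16.00 and 16.27 in control and 16.76, 16.04 and 16.21 in knockdown arrays. Its groups overlap, and 2 of 3 pairs were higher. The difference of 0.15 (SE 0.19, interval -0.29 to 0.58, adjusted p = 0.808) rests on knockdown replicate 1, without which it was -0.07. In both genes the replicate 1 arrays were the highest of their groups.

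BLNK, the adaptor, was called on neither probe. Probe A_33_P3363637 read 12.50, 12.71 and 12.59 in control and 13.25, 12.99 and 12.84 in knockdown arrays, without overlap, a difference of 0.43 (SE 0.13, interval 0.13 to 0.73, adjusted p = 0.207). Probe A_24_P64344 read 10.97, 11.33 and 11.20 against 11.68, 11.53 and 11.27. Here knockdown replicate 3 lies below control replicate 2, and the difference was 0.32 (SE 0.14, interval -0.01 to 0.65, adjusted p = 0.411). On both probes the pair of replicate 1 had the widest difference, 0.75 and 0.71, and without both replicate 1 arrays the differences were 0.26 and 0.13.

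Among the kinases, SYK came closest to the threshold. Its probe, the mean of 5 spots, read 12.54, 12.69 and 12.53 in control and 12.95, 13.07 and 12.99 in knockdown arrays. The groups do not overlap, and the 3 pair differences of 0.41, 0.38 and 0.46 were close to each other. The difference was 1.34-fold, or 0.42 (SE 0.10, interval 0.19 to 0.64), with an adjusted p of 0.0998, and of 0.0558 with the replicate block. SYK was thus called in neither fit.

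BTK, the TEC family kinase downstream of SYK and BLNK, was called on neither probe. Probe A_23_P137139 read 10.44, 10.23 and 10.35 in control and 10.82, 10.53 and 10.56 in knockdown arrays, a difference of 0.30 (SE 0.12, interval 0.03 to 0.57, adjusted p = 0.351) without overlap. Probe A_33_P3277514 read 12.48, 12.04 and 12.13 against 12.59, 12.21 and 12.40, with overlapping groups and a difference of 0.18 (SE 0.15, interval -0.16 to 0.53, adjusted p = 0.675). This value ran from 0.09 without knockdown replicate 1 to 0.31 without control replicate 1. Every BTK pair was higher in knockdown on both probes.

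LYN was the exception. It read 9.56, 9.55 and 9.68 in control and 9.65, 9.37 and 9.42 in knockdown arrays, as the mean of 5 spots. The groups overlap and 1 of 3 pairs was higher. The difference of -0.11 (SE 0.11, interval -0.37 to 0.14, adjusted p = 0.729) has an interval that spans 0, and ran from -0.20 to -0.06 as single arrays were left out. Scaled on the spike-in controls it was 0.24, where the median of all retained probes was 0.35.

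**Figure D2:**
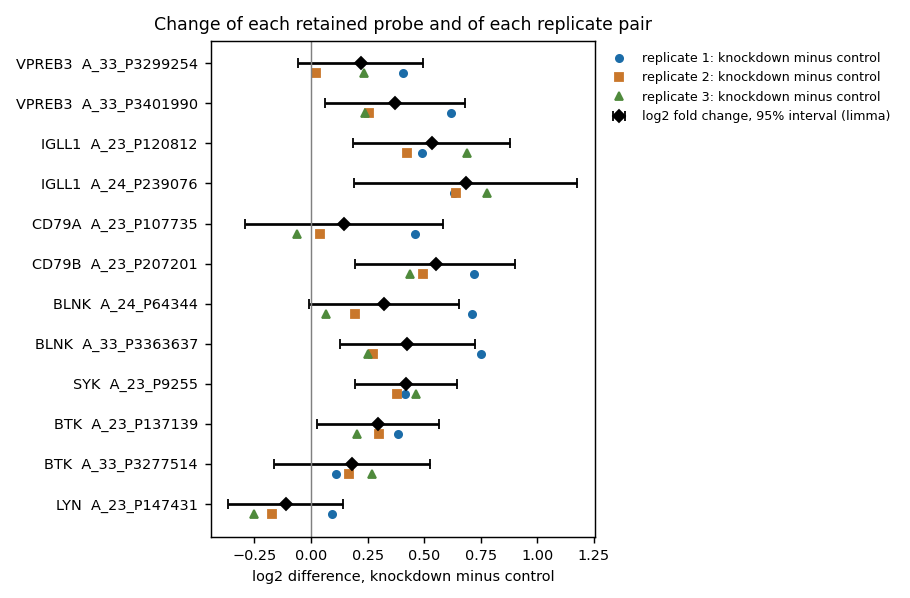
Log2 difference, knockdown minus control (x axis), of the 12 retained probes, as the fitted fold change with its 95% interval (black) and as the difference within each replicate number (colored symbols). The intervals of both IGLL1 probes, CD79B, SYK, VPREB3 A_33_P3401990, BLNK A_33_P3363637 and BTK A_23_P137139 lie right of 0. Those of the other probes, CD79A and LYN among them, span 0, and the LYN estimate of -0.11 lies left of it.

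Together, 12 of the 14 probes, standing for 8 of the 9 genes, were retained, and each of the 12 was over the threshold on all 6 arrays. limma called 0 of them, where 1.74% of all retained probes were called (126 higher and 352 lower). At an unadjusted p under 0.05, 7 of 12 passed, all of them higher, against 12.5% of all retained probes in either direction and 5.72% higher. With slide row as a term, 2 of 12 passed, where 2053 of the 27490 retained probes did, and the median difference of the 12 was 0.29. By sign, 11 of 12 were higher, compared with 49.7% of all retained probes. Their median difference was 0.35, where it was -0.002 over all retained probes and 0.003 over the 10308 probes at least as bright as the dimmest of them. Groups did not overlap, with knockdown higher, for 8 of 12 probes and for 9.03% of all, or 18.9% in either direction. In all 3 pairs 10 of 12 were higher, against 20.7% of all. Probes of 1 gene share their transcript, so that the 12 probes are not 12 independent readings.

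With the replicate block, 3 of 12 probes were called, all higher, against 3.79% of all retained probes, made up of 1.36% called higher and 2.43% lower. Averaging the probes of each gene gave 0.61 for IGLL1 (adjusted p = 0.2, with the block 0.0226), 0.55 for CD79B (0.171, with the block 0.0393) and 0.42 for SYK (0.0918, with the block 0.0549). For a single probe, the exact permutation test has 20 splits of 3 against 3 and cannot give a two-sided p under 0.1, the value of each probe whose groups do not overlap.

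**Figure D3:**
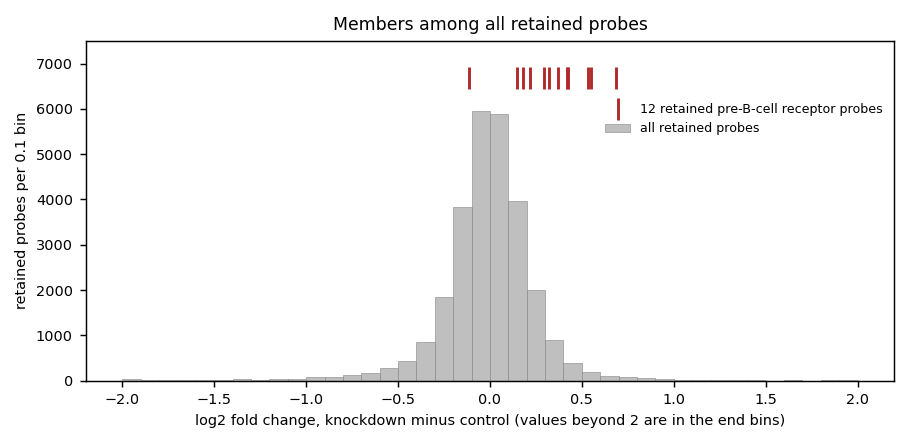
Number of retained probes per 0.1 bin of log2 fold change, knockdown minus control (grey bars), with the 12 pre-BCR probes as red ticks above. The distribution of all probes centers near 0, and 11 of the 12 ticks lie right of it, between 0.15 and 0.68.

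The replicates did not shift these genes in 1 common direction. Relative to the mean of replicates 2 and 3, the replicate 1 arrays of both groups differed by -0.35 and -0.57 on the 2 IGLL1 probes. On CD79A, CD79B and BTK the replicate 1 arrays were higher, by 0.40 on CD79A, by 0.34 on CD79B and by 0.21 and 0.33 on the BTK probes. SYK differed little between replicate 1 and the others, by -0.08. On BLNK the average over both groups was -0.004 and 0.10, but the groups went opposite ways. Control replicate 1 was the lowest and knockdown replicate 1 the highest of its group on both BLNK probes.

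Then the other genes of the pathway were examined, through 6 lists of 92 genes that hold co-receptors, related kinases, adaptors, inhibitors, light chain genes and regulators. Of these genes 87 were on the array and 76 had retained probes, 101 probes in all. Among them 6 probes were called higher and 2 lower, where 1.74% of all retained probes were called. By sign 65 of 101 were higher, against 49.7% of all, with a median difference of 0.09. With the replicate block 14 were called higher and 2 lower, against 3.79% of all. With slide row as a term 2 were called higher and 0 lower, so most calls named below, BANK1 and SLA2 included, were lost. After scaling on the spike-in controls, which raised the median difference of all retained probes by 0.35, none was called lower and 18 were called higher, where 909 of all 27490 retained probes were called higher and 160 lower.

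Co-receptor and membrane partners had all 9 retained probes, of 7 genes, higher by sign, with a median of 0.40 and 1 call. CD81, a tetraspanin of the B-cell surface, was called on probe A_33_P3373375, which read 13.62, 13.53 and 13.59 in control and 14.08, 14.14 and 14.32 in knockdown arrays, a difference of 0.60 (SE 0.10, adjusted p = 0.0295). Its other probe differed by 0.47 (adjusted p = 0.0535, with the replicate block 0.0432). LAT2, a membrane adaptor also known as NTAL, differed by 0.75 (adjusted p = 0.0869, with the block 0.00884).

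Of the other SRC, SYK and TEC family kinases, 7 of 11 retained probes were higher by sign, with a median of 0.06. BLK, the SRC family kinase of B-lineage cells, was the 1 called, at 11.15, 11.24 and 11.18 in control and 12.36, 12.41 and 12.26 in knockdown arrays. Its difference was 2.22-fold, or 1.15 (SE 0.09, adjusted p = 0.00111), without overlap. ZAP70, the SYK relative best known from T cells, differed by 0.90 on one probe (adjusted p = 0.103, with the block 0.039) and by 0.14 on the other (adjusted p = 0.949). YES1 differed by -0.44 (adjusted p = 0.182).

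Downstream adaptors and effectors, which include the calcium and MAP kinase branches, had 17 of 32 retained probes higher and a median of 0.05. BANK1, a scaffold that links LYN to calcium release, was called lower. It read 6.29, 6.16 and 6.28 in control and 5.68, 5.45 and 5.40 in knockdown arrays, a difference of -0.73 (SE 0.11, adjusted p = 0.0171), and it was well above background on 1 of 3 knockdown arrays. BANK1 passed the filter through its control arrays alone, as did SLA2 below, so that both probes called lower entered the test through the group where they are high. VAV3, an exchange factor for small GTPases, differed by -0.53 (adjusted p = 0.0605). MAP3K7, the kinase TAK1, differed by 0.51 (adjusted p = 0.0808, with the block 0.0458).

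Inhibitory receptors and phosphatases had 20 of 31 retained probes higher, a median of 0.08 and 4 calls. FCRLA, an Fc receptor-like protein that stays inside B cells, was higher by 1.05 (SE 0.13, adjusted p = 0.00857) on one probe, while the other differed by 0.24 (adjusted p = 0.833) and was above background on 1 of 3 control arrays. SIT1, a membrane adaptor with inhibitory motifs, was higher by 0.82 (SE 0.11, adjusted p = 0.0106). CSK, the kinase that holds SRC family kinases inactive, was higher by 0.63 (SE 0.12, adjusted p = 0.0397). SLA2, an adaptor that dampens receptor signalling, was at least 1.59-fold lower on probe A_23_P143173 (adjusted p = 0.0111). All knockdown arrays had that probe at background, with measured means of 6.11 in control and 5.42 in knockdown arrays, and the other SLA2 probe differed by -0.10 (adjusted p = 0.759). CD22 and CD72, inhibitory receptors of B cells named after their values were seen, differed by 0.67 (adjusted p = 0.054) and 0.43 (adjusted p = 0.373) and were called with the block only, at 0.0264 and 0.0482.

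Among regulators of these genes 11 of 17 retained probes were higher, with a median of 0.08. SPIB, an ETS factor of the B lineage, was the 1 called, at 9.60, 9.51 and 9.75 in control and 10.97, 11.05 and 10.90 in knockdown arrays. This is a 2.55-fold difference, or 1.35 (SE 0.10, adjusted p = 0.00101). SPI1, which encodes PU.1, differed by 0.57 (adjusted p = 0.103), and BACH2, a repressor active at the pre-BCR checkpoint, by 0.48 (adjusted p = 0.312) on one probe and 0.28 (adjusted p = 0.638) on the other.

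**Figure D4:**
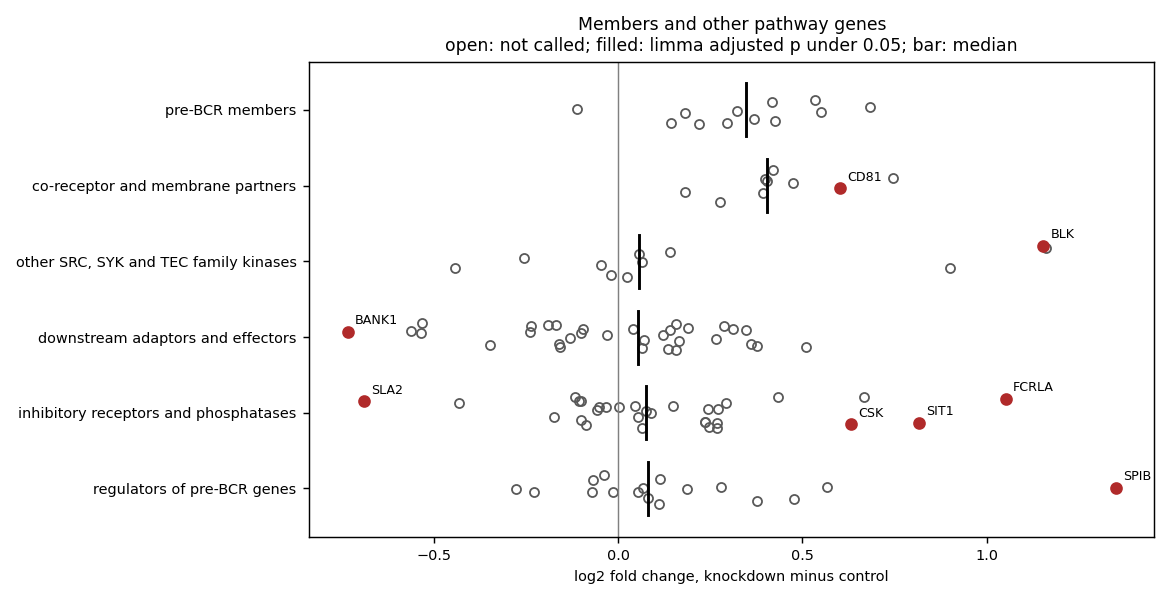
Log2 fold change, knockdown minus control (x axis), of each retained probe of the pre-BCR genes and of 5 other pathway lists (rows), with called probes filled and named and the median of each row as a bar. The pre-BCR row and the co-receptor row sit mostly right of 0, with medians of 0.35 and 0.40, while the medians of the other rows lie between 0.05 and 0.08, with 1 called probe in each of those rows except inhibitory receptors and phosphatases, which has 4.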

How the data were processed

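RNA of 3 control and 3 knockdown samples was hybridized to one-color arrays. The authors extracted spot intensities with Feature Extraction 10.7.1.1, per the file headers, and these deposited intensities were not normalized between arrays. The authors also deposited normalized log2 values, used as an alternative. Across probes, these correlated with the values computed here with r from 0.99904 to 0.99969 per array. The VSN model named in the study's methods was written anew (0.9 quantile of least squares, 7 iterations) and fitted to the raw median spot intensity, without the vsn package. Its generalized log2 scale understates the change of dim probes. Outlier spots were left out and spots of one probe averaged. A probe was retained if its normalized value was over 1.1 times the 0.95 quantile of negative controls (308 spots) on 60% or more of a group's arrays. That filter was named for patient samples and carried over here. The comparison used limma 3.58.1 under R 4.3.3 (two-sided, Benjamini-Hochberg over 27490 probes, threshold 0.05). No block was used, as no block is named. The procedure was tested on simulated data.

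Probes were named through RefSeq accessions, which gave a symbol to 25728 of 34134 catalogue probes. The array number limits the precision, and the study calls the replicates biological, while the labels do not say whether they came from separate cultures. The sample titles number the replicates 1 to 3 in both groups. Deviations from the group means of same-numbered arrays correlated with r = 0.426, 0.287 and 0.204 across probes, while replicates 2 and 3 of opposite groups correlated with r = 0.17 and 0.187, so that replicate 1 stands apart most clearly. As each same-number r was over 0.1, the numbers were taken to pair the samples, and blocked values are given where they change a call. Replicates 2 and 3 exchanged would also have met this rule, so their pairing rests on the titles, as do the calls of the blocked fit. Genes and lists were chosen with earlier results of these data known. Named were all probes of the 9 genes, ETV6, RUNX1 and, for each other list, every gene with a called probe and the 3 genes of lowest p, of which some are not reported here. A probe at background on all arrays of a group has a lower bound in place of a fold. The bound sets the other group's mean against the probe's own value or, where that was lower, the lowest value of any probe flagged above background on that array. Alternatives concerned the block, normalization, scaling, filter, test, averaging of probes, slide row and left-out replicates.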

Additional observations from a re-analysis of the deposited data

How the results depend on the processing

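With the replicate block, 1041 retained probes were called (373 higher and 668 lower) in place of 478, 3 pre-BCR probes in place of 0 and 16 other pathway probes in place of 8. It changed the call of no pre-BCR probe other than those of IGLL1 and CD79B. Scaling on the spike-in controls gave 1069 calls (909 higher and 160 lower), 5 pre-BCR probes (both of IGLL1, CD79B, BLNK A_33_P3363637 and SYK) and 18 other pathway probes. Without a filter, 224 retained and 5 other pathway probes were called, and with slide row as a term 227 and 2. Leaving out both replicate 1 arrays gave 711 retained probes (221 higher and 490 lower), 1 pre-BCR probe, IGLL1 A_24_P239076, and 16 other pathway probes. Leaving out single replicates gave 191 to 553 retained, 0 pre-BCR and 3 to 9 other pathway probes. The lowest count came without control replicate 2, and the counts were 282 without control replicate 1, 258 without control replicate 3, 214 without knockdown replicate 2 and 205 without knockdown replicate 3. Where these fits left 2 arrays in a group, their spread came from limma's pooled estimate. Direction turned in 3 of 204 recomputed pre-BCR differences. LYN became 0.240 under spike-in scaling, which raised the median of all retained probes from -0.002 to 0.351 and so turned any small negative difference, and CD79A became -0.067 without knockdown replicate 1, with a range of -0.067 to 0.292 over left-out single replicates, and -0.012 without both replicate 1 arrays. The ETV6 probe was called with the intensity trend and robust prior (adjusted p = 0.0436) and without both replicate 1 arrays (0.0309). The cause of the other shifts was not tested. Quantile normalization after normexp, processed signals, deposited values, the scanner's background flag, the intensity trend with a robust prior, averaged symbols and a filter on linear intensities, the last chosen after seeing the data, called 382 to 542 retained probes and 0 pre-BCR probes. VPREB1 was limited by signal over background.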

Other observations

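Genes that mark B-cell precursors, CD79A among them, gave 16 retained probes. Of these 12 were higher by sign, against 49.7% of all retained probes, with a median log2 difference of 0.11. limma called 0, against 1.74% of all, 5 had an unadjusted p under 0.05, against 12.5% of all, and with the replicate block that of CD22 was called, against 3.79% of all. MME, the antigen CD10 of early B cells, differed by 0.59 (adjusted p = 0.257) on one probe and by 0.23 and 0.21 (adjusted p = 0.638 and 0.718) on the others. RAG2, a subunit of the V(D)J recombinase, differed by -0.44 (adjusted p = 0.191). CD34, a marker of the earliest progenitors, had a retained probe (A_33_P3225046) at background on every knockdown array, and above it on 2 of 3 control arrays. Its means were 5.73 in control and 5.39 in knockdown arrays (adjusted p = 0.177, not called). The bound was 1.26-fold lower in knockdown, but the control mean behind it includes an array not above background. Like BANK1 and SLA2, the probe passed the filter through its control arrays alone, the group where it is high.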
